A study of Mus musculus with 18 samples.

Results

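The genes described here encode 9 enzymes and 1 transporter that build the sugar which L-selectin binds on high endothelial venules (HEVs), the lymph node vessels through which lymphocytes leave the blood. The 10 genes were chosen by name for that role: the sulphotransferases Chst4 and Chst2, the fucosyltransferases Fut7 and Fut4, the backbone enzymes B3gnt3, Gcnt1 and B4galt1, the sialyltransferases St3gal4 and St3gal6, and the GDP-fucose transporter Slc35c1. All 10 were found by Ensembl identifier among the 55401 genes of the endothelial table and by symbol among the 22612 lines of the EO771 table.

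The ligand, 6-sulfo sialyl Lewis X, is a short sugar chain on mucin-like glycoproteins such as GLYCAM1. N-acetylglucosamine is added to the O-linked chain and sulphated, galactose follows, and sialic acid and then fucose cap the end. The antibody epitope peripheral lymph node addressin (PNAd) contains the sulphate of this chain, so PNAd on a cell marks part of the pathway, sulphation included, rather than the whole. In lymph nodes the enzymes act in the Golgi of high endothelial cells (HECs), and leukocytes use FUT7 and FUT4 to cap selectin ligands of their own.

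RNA was sequenced from 18 mouse libraries, with 3 in each of 6 groups. BEC normal libraries held blood endothelial cells (BECs) from mammary fat, BEC tumour libraries held BECs of primary EO771 tumours, HEC normal libraries held HECs of lymph nodes, and HEC tumour libraries held HECs of what the labels call lymph node metastases. The mice were wild-type female C57BL/6 animals, obtained at 5 to 6 weeks of age and inoculated or not with tumour cells. EO771 is a mouse breast cancer cell line, and the last 2 groups were EO771 cells in culture given vehicle or 12-HETE, an eicosanoid produced by the lipoxygenase ALOX12. Per the study's methods the cells received 12-HETE at 100 nM, or DMSO at 2% in saline as vehicle, and RNA was taken after 48 h. The labels do not say how many mice went into each endothelial library.

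Endothelial cells were sorted as CD45- and CD31 high, and then as PNAd+ for HECs and PNAd- for BECs. The sort that defines HEC and BEC therefore used a product of part of this pathway, sulphation included. A difference between the cell types in transcripts of those steps is not independent of the gate. How far the gate bears on the other genes was not tested. HECs came from lymph nodes and BECs from fat pads or tumours, so cell type and tissue cannot be told apart. In bulk libraries fewer cells of a type and less RNA per cell cannot be told apart either.

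Endothelial libraries summed to between 56.4 and 79.4 M. Their low values rise in steps of about 3.73, so that 1 unit is not 1 fragment. Divided by the step, the endothelial totals were 15.1 to 21.2 M. EO771 libraries held 17.3 to 18.6 M counts. Levels are DESeq2 normalised counts, in the order of replicates 1, 2 and 3, and a value of 3 fragments per library was taken as the floor below which a gene was not distinguished from 0. On the normalised scale the highest floor was 13.2 in BEC normal and 10.4 in BEC tumour, and 11.4 and 12.9 in the normal and tumour HEC groups. No molecular identifiers are described for these reads. The floors cover counting error alone, whereas the intervals use the SE of DESeq2, which also includes spread between libraries.

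The cell type labels were set against marker genes. Endothelial markers summed to between 2285 and 3040 CPM (counts scaled to 1 M per library) in all 12 libraries, with none of the 7 at 0. Of 4 markers of high endothelium, Glycam1 was between 39129 and 71579 normalised counts in the HEC libraries and 0 in every BEC library, whereas Madcam1 and Ackr1 were at or near the floor in HECs too. The fourth, Enpp2, overlapped between the cell types, at 48.8 to 256 in BECs and 8.14 to 272 in HECs, and was called in neither comparison of HECs with BECs, so the label rests on Glycam1 among these markers. Leukocyte markers summed to between 615 and 1019 CPM in BEC tumour and to between 6.01 and 12.4 CPM in the other endothelial libraries. Epithelial markers summed to 7.92, 11.01 and 71.6 CPM in BEC tumour and to at most 3.1 CPM in the other endothelial libraries. Fibroblast and pericyte markers summed to between 186 and 192 CPM in BEC normal, 32.3 and 56.5 in BEC tumour, 22.4 and 23.4 in HEC normal and 10.6 and 11.6 in HEC tumour. Of these 5 markers, 4 were lower and 1 was higher in BEC tumour than in BEC normal. The part of any of these markers in the values given below was not tested.

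The question put to the endothelial libraries was how HECs differ from BECs and how each changes with tumour. Each p-value rests on the spread between libraries, with 3 a group, which the study describes as independent experiments. The 12 endothelial libraries share 1 estimate of that spread for each gene, so groups outside a comparison also enter its p-value. An exact permutation test of 3 against 3 cannot go below 0.1. The call rule was an adjusted p under 0.05 together with a more than 2-fold difference. Between HEC normal and BEC normal, 6 of the 10 genes were called, 3 higher in HECs (Chst4, Fut7 and B3gnt3) and 3 lower (Chst2, Fut4 and St3gal4), against 32.2% of all 18511 genes tested. Between HEC tumour and BEC tumour 4 of 10 were called, Chst4 and Fut7 higher and Chst2 and Fut4 lower, against 21.9% of all genes. Within each pair of sister enzymes that carry out the sulphation or the fucosylation, 1 gene was thus higher in HECs and its sister higher in BECs.

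With tumour, BECs had 3 of 10 genes called, all lower (Chst2, Fut4 and St3gal4), against 23.3% of all genes. HECs had 0 of 10 called, against 7.8% of all genes. By DESeq2 3 of the 10 had an unadjusted p under 0.05 in that comparison (B3gnt3, B4galt1 and Slc35c1), and edgeR also called 0. The share of all genes at an unadjusted p under 0.05 is not given here or below. Such counts are therefore not read as particular to the genes counted. All 10 genes passed the filter on the mean in the endothelial table, which a gene could pass through 1 cell type alone. The median log2 fold change of the 10 genes was -0.06 between HEC normal and BEC normal, -0.27 between HEC tumour and BEC tumour, 0.07 with tumour in HECs and -0.21 with tumour in BECs, against 0.00, 0.01, 0.02 and 0.01 over all genes tested. The comparisons share groups, so their calls are not independent of one another.

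**Figure D1:**
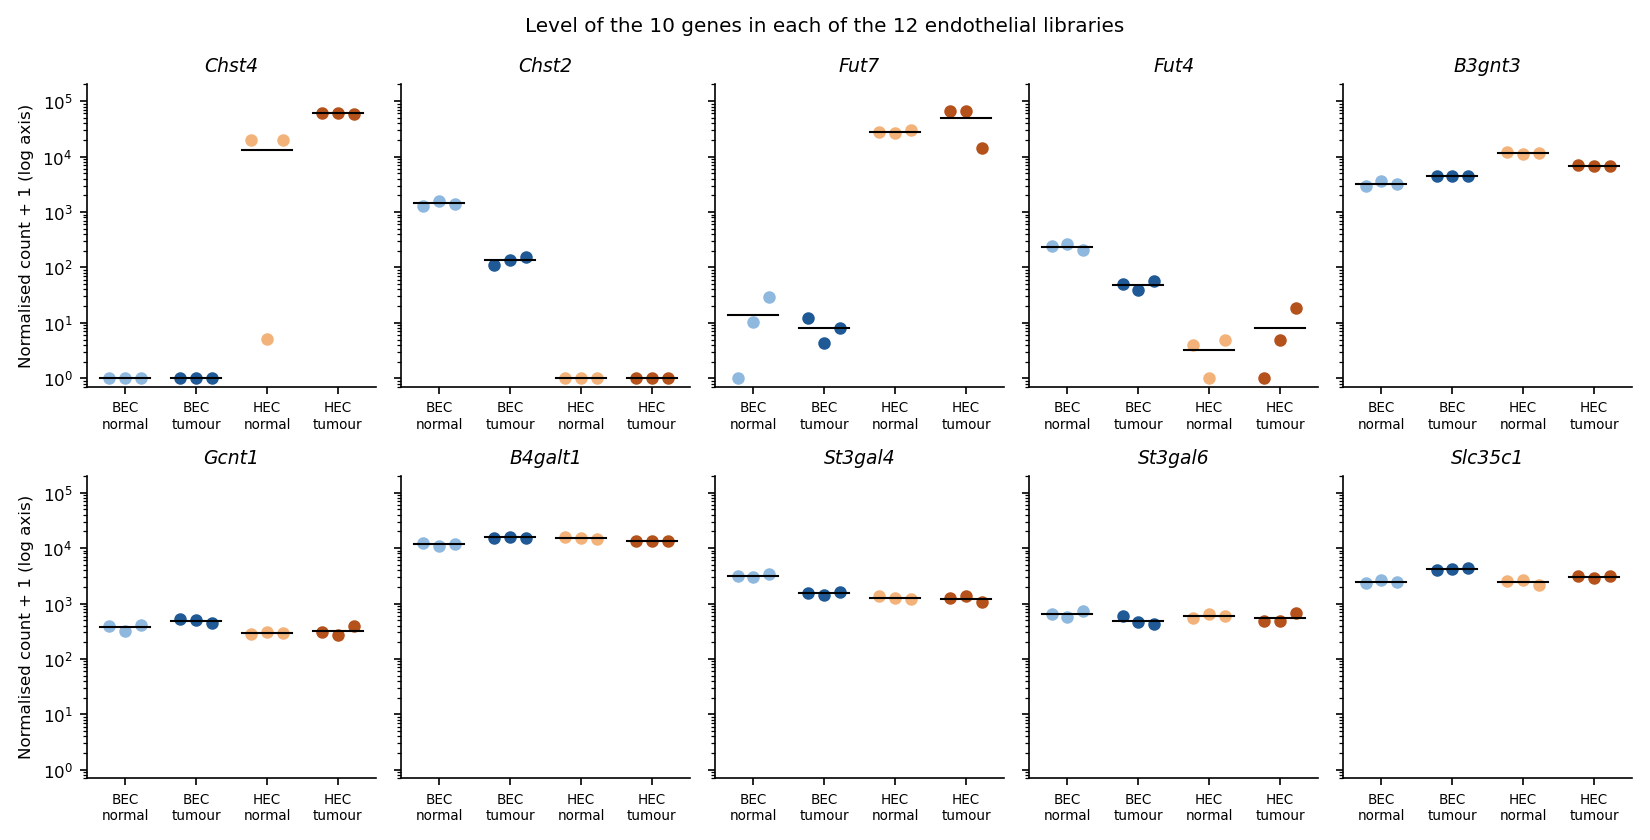
Each point is 1 library, the vertical log axis gives the DESeq2 normalised count plus 1, and the bar is the mean of 3 libraries. Chst4 and Fut7 are high in HECs and at or near 0 in BECs, Chst2 and Fut4 show the opposite, and single libraries stand apart for Chst4 (HEC normal replicate 2) and Fut7 (HEC tumour replicate 3).

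The stretches of DNA just before the transcription start are given for 3 genes that separate the cell types, Fut7 and B3gnt3 from the side higher in HECs and Chst2 from the side higher in BECs. Each is the 250 bases before a RefSeq start in GRCm38, read 5′ to 3′ on the strand of the gene: chr2:25422992-25423241 (+) for Fut7, chr8:71701801-71702050 (-) for B3gnt3 and chr9:95407271-95407520 (-) for Chst2. Capitals mark the GC box GGGCGG that SP1 binds.
Fut7: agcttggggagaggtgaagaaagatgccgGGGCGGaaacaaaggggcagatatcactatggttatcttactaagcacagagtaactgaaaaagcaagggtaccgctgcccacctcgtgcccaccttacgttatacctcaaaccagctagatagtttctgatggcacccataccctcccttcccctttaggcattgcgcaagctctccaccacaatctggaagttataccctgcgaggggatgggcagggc
B3gnt3: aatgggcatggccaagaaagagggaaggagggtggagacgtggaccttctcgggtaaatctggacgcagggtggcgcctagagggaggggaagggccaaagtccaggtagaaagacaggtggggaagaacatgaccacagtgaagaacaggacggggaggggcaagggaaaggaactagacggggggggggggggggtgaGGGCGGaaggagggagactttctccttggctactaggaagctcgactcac
Chst2: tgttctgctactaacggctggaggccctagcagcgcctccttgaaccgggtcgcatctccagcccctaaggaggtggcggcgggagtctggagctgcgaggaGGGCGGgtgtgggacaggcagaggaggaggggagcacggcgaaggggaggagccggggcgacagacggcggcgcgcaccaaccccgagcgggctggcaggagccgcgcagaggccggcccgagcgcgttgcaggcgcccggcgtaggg

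The GC box was the only match in these 3 windows to 6 motifs searched on both strands. It stood in 32.7% of the 32851 windows of the same length before mouse RefSeq starts. TATAAA stood in 12.4% of them, CACGTG in 6.02%, AGGTCA in 14.0% and CCGGAA in 12.0%, and the NF-kB site of the immunoglobulin kappa enhancer in 0.14%. The Chst2 window held 27 CpG dinucleotides, the B3gnt3 window 8 and the Fut7 window 7, against a median of 6. The Chst2 window overlaps an exon of the neighbouring gene Gm37805, and its RefSeq start lies outside the annotated transcripts used for length. None of the 6 motifs stood in the windows of Chst4 and Fut4 or in that of a second RefSeq start of Fut7 (chr2:25423444-25423693), which lie wholly or mostly within exons of their own genes and are not printed. The letters describe these windows and carry no measurement of binding.

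Chst4 (ENSMUSG00000035930, chr8:110029153-110039740, minus strand) encodes an N-acetylglucosamine-6-O-sulphotransferase, the enzyme best known for adding the sulphate that L-selectin and the PNAd antibody recognise on HEVs. It was 0 in all 6 BEC libraries. In HEC normal it was at 19906, 4.07 and 20205 normalised counts, and in HEC tumour at 61178, 60343 and 59212. HEC normal replicate 2 was therefore under the floor, at 0.0203% of the mean of the other 2 libraries, although its cells had been sorted for PNAd.

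Against the floor of the BEC libraries, the excess of Chst4 was at least 1015-fold in HEC normal (adjusted p = 1.67e-09) and at least 5804-fold in HEC tumour (adjusted p = 5.91e-12). Without HEC normal replicate 2 the first bound was 1523-fold. Between HEC tumour and HEC normal the means were 60244 ± 987 and 13372 ± 11578 (SD, n = 3 each), and the log2 fold change of 2.17 ± 2.30 (SE) was not called (adjusted p = 0.512). Without that library the log2 fold change was 1.58 ± 0.06 and was called (adjusted p = 2.29e-143). This SE and p leave out the spread from a library singled out by its Chst4 value. They are not read as a test of the tumour change. The 3 HEC tumour libraries lay above all 3 HEC normal libraries in either case.

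HEC normal replicate 2 was close to its fellows in Glycam1, at 39129 normalised counts against 40089 and 40336. It was low in Enpp2, a marker of high endothelium, at 8.14 against 157 and 272. Of 8727 genes with a middle value of at least 1000 in HEC normal, 2 fell under 1% of that middle value in replicate 2, and 4 did so in any of its 3 libraries. Such single-library gaps also occurred elsewhere in the endothelial table, in 1 of 8917 genes in BEC normal, 3 of 8725 in BEC tumour and 1 of 8708 in HEC tumour. They occurred in 0 of 4416 genes in EO771 vehicle and 0 of 4405 in EO771 12-HETE.

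Chst2 (ENSMUSG00000033350, chr9:95399292-95406722, minus strand) encodes the second N-acetylglucosamine-6-O-sulphotransferase that sulphates HEV ligands, and is expressed in many tissues. It was 0 in all 6 HEC libraries. In BEC normal it was at 1284, 1598 and 1410 normalised counts, and in BEC tumour at 111, 134 and 154. No BEC library overlapped a HEC library, and the 2 BEC groups did not overlap each other.

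Chst2 was at least 126-fold lower in HEC normal than in BEC normal (adjusted p = 2.44e-26) and at least 10.3-fold lower in HEC tumour than in BEC tumour (adjusted p = 3.76e-14). With tumour it fell 10.7-fold in BECs, a log2 fold change of -3.42 ± 0.21 (adjusted p = 9.13e-58). Some markers of other cell types moved the same way as Chst2. The fibroblast collagen Col1a1 was at 7971, 9057 and 8280 normalised counts in BEC normal, at 724, 744 and 180.5 in BEC tumour and at most 63.9 in HECs, and the pericyte marker Rgs5 was at 262, 198 and 188 in BEC normal, at 45.5, 84.6 and 23.5 in BEC tumour and at most 7.1 in HECs. Pdpn, a marker of lymphatic endothelium and fibroblasts, was at 4083 to 4756 in BEC normal, 1663 to 2204 in BEC tumour and at most 272 in HECs. Other markers of the same lists did not follow Chst2. Dcn was at 242.5, 149 and 152 normalised counts in BEC normal and at 540, 694.5 and 207.5 in BEC tumour. Pdgfra was at 1155, 1045 and 1046 in HEC normal, beside 1198, 972 and 1200 in BEC normal. Lyve1 was at 11889 to 15830 in HECs. The part of all these markers in the values of Chst2 was not tested. Nor was it for Fut4 and St3gal4, which had the same order of BEC normal over BEC tumour. A gene at 0 throughout 1 cell type and well expressed in the other was rare: of 8931 genes with a mean of at least 1000 in BEC normal, 10 were 0 in all 6 HEC libraries. On the other side, of 8724 genes with a mean of at least 1000 in HEC tumour, 3 were 0 in all 6 BEC libraries. With a mean of at least 10000 they were 2 of 1281, Chst4 and Glycam1. At that level in BEC normal, 0 of 1450 genes were 0 in all 6 HEC libraries.

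Of the sulphotransferases related to Chst4 and Chst2, Chst7 and Chst1 were well expressed in HECs. Chst7, which also transfers sulphate to N-acetylated sugars, was at 3348, 3568 and 3148 normalised counts in HEC normal against 1359, 1371 and 1261 in BEC normal, and was higher in HECs by 1.34 ± 0.10 on the log2 scale (adjusted p = 7.99e-43). Chst1, a keratan sulphate galactose-6-sulphotransferase, was lower with tumour in both cell types, with log2 fold changes of -1.24 ± 0.12 in HECs (adjusted p = 3.98e-23) and, for BECs, -2.08 ± 0.12 (adjusted p = 2.43e-62). Chst5, another relative of Chst4, was 0 in all 6 HEC libraries, so that HEC normal replicate 2 had none of Chst4, Chst2 and Chst5 above the floor while Chst7 stood at 3568 and Chst1 at 4799.

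Fut7 (ENSMUSG00000036587, chr2:25423267-25426374, plus strand) encodes the alpha-1,3-fucosyltransferase that completes sialyl Lewis X and is the main one for L-selectin ligands. It was at 28069, 27121 and 29599 normalised counts in HEC normal and at 66477, 65523 and 14255 in HEC tumour. In BEC normal it was at 0, 9.41 and 28.4, and in BEC tumour at 11.1, 3.38 and 6.97, so that the mean of each BEC group was under the floor. HEC tumour replicate 3 stood apart at 21.6% of the mean of the other 2 libraries, and lay below all 3 HEC normal libraries.

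Against the floor of the BEC libraries, the excess of Fut7 was 2146-fold in HEC normal (adjusted p = 1.11e-26). In HEC tumour it was 4697-fold (adjusted p = 2.44e-33), or 6358-fold without replicate 3. These folds are not minima, since each BEC group had a library above the floor. Between HEC tumour and HEC normal the means were 48752 ± 29879 and 28263 ± 1250 (SD, n = 3 each), with a log2 fold change of 0.79 ± 0.99 (adjusted p = 0.594). Leaving out HEC tumour replicate 3 gave 1.22 ± 1.04 (adjusted p = 0.41), which was not called either. Of 8708 genes with a middle value of at least 1000 in HEC tumour, 14 fell under 25% of it in replicate 3, and 43 did so in any of the 3 libraries.

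Fut4 (ENSMUSG00000049307, chr9:14748320-14752393, minus strand) encodes a second alpha-1,3-fucosyltransferase, known for making Lewis X and for sharing selectin ligand synthesis with FUT7 in leukocytes. It was at 240, 265 and 207 normalised counts in BEC normal and at 48.2, 38.9 and 55.8 in BEC tumour, while HEC normal had 3.04, 0 and 3.82 and HEC tumour 0, 3.95 and 17.7. Each BEC library was above each HEC library. Both HEC groups had means under the floor, although HEC tumour replicate 3 was above it, so no fold between them was read.

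Fut4 was at least 20.8-fold lower in HEC normal than in BEC normal (adjusted p = 3.20e-13). Between HEC tumour and BEC tumour its log2 fold change was -2.72 ± 0.78 (adjusted p = 0.00129). The floor put HEC tumour 3.69-fold lower, but this is not a minimum, since a HEC tumour library was above the floor. In tumour BECs Fut4 fell by 2.32 ± 0.71 on the log2 scale (adjusted p = 0.00287), a 4.98-fold drop. Tested against a log2 fold change of 1, neither this call (adjusted p = 0.423) nor the one between the tumour groups (adjusted p = 0.234) held. Leukocyte markers were at most 12.0 CPM in BEC normal and at least 615 CPM in BEC tumour.

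Slc35c1 (ENSMUSG00000049922, chr2:92452764-92460538, minus strand) encodes the transporter that carries GDP-fucose into the Golgi for all fucosyltransferases. It was at 2360, 2631 and 2474 normalised counts in BEC normal and 3951, 4188 and 4368 in BEC tumour, while HEC normal had 2580, 2710 and 2189 and HEC tumour 3110, 2891 and 3091. The tumour libraries were above the normal ones in both cell types with no overlap, and the normal groups of the 2 cell types overlapped.

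The log2 fold change of Slc35c1 with tumour was 0.75 ± 0.09 in BECs (adjusted p = 8.16e-15) and was 0.28 ± 0.09 in HECs (adjusted p = 0.00952), both under the fold threshold. The difference between these changes was -0.46 ± 0.13 (adjusted p = 0.00139). Between HEC normal and BEC normal the log2 fold change of Slc35c1 was 0.00 ± 0.09, with a 95% interval of -0.18 to 0.19. No fucosyltransferase relative among 6 tested was called in any endothelial comparison by DESeq2 or by edgeR. DESeq2 called from 7.8% to 32.2% of all genes in these comparisons. Of the 6 relatives, 5 had an unadjusted p under 0.05 between HEC normal and BEC normal, a count given without the share of all genes at that p.

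B3gnt3 (ENSMUSG00000031803, chr8:71690756-71701789, minus strand) encodes the N-acetylglucosaminyltransferase that extends the core 1 chain and so makes the arm on which HEV ligands are built. It was at 2885, 3555 and 3254 normalised counts in BEC normal and 4457, 4406 and 4390 in BEC tumour, while HEC normal had 11864, 11015 and 11494 and HEC tumour 6965, 6774 and 6747. The 4 groups did not overlap, and in these libraries the level was lower with tumour in HECs but higher with tumour in BECs.

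HEC normal libraries held 3.55-fold more B3gnt3 than BEC normal, or 1.83 ± 0.08 on the log2 scale (adjusted p = 1.20e-127). Between HEC tumour and BEC tumour the log2 fold change was 0.63 ± 0.08 (adjusted p = 6.97e-16), under the fold threshold. With tumour it was -0.75 ± 0.07 in HECs (adjusted p = 8.34e-22) and, for BECs, 0.45 ± 0.08 (adjusted p = 1.32e-08). The difference between the tumour changes of the cell types, tested as an interaction, was -1.20 ± 0.11 (adjusted p = 5.96e-28) and was called. Tested against a log2 fold change of 1 this call was lost (adjusted p = 0.427). EO771 cells express B3gnt3 too, and the part of admixed tumour cells in the BEC tumour values was not tested.

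By the interaction 3 of the 10 genes were called (B3gnt3 lower, St3gal4 and Fut4 higher), against 23.3% of all genes. By edgeR 2 of the 10 were called, and none of the 3 was called in the DESeq2 test against a log2 fold change of 1. The value for Fut4 was 3.96 ± 1.19 (adjusted p = 0.00251), but its 2 HEC groups were under the floor, so the size of the difference was not resolved.

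Gcnt1 (ENSMUSG00000038843, chr19:17326141-17372844, minus strand) encodes the enzyme that starts the core 2 branch, the other arm that can carry the ligand. It was at 392, 318 and 409 normalised counts in BEC normal and 528, 502 and 440 in BEC tumour, while HEC normal had 280, 305 and 289 and HEC tumour 303, 266 and 393. Every HEC normal library was below every BEC normal library, and every HEC tumour library below every BEC tumour library.

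Against BEC normal, the log2 fold change of Gcnt1 in HEC normal was -0.36 ± 0.18 (adjusted p = 0.0775) and -0.61 ± 0.18 between HEC tumour and BEC tumour (adjusted p = 0.00197). With tumour it was 0.14 ± 0.19 in HECs, with a 95% interval of -0.23 to 0.50, and 0.39 ± 0.18 in BECs (adjusted p = 0.0567). Gcnt1 was called in no comparison, and leukocyte markers were high in the BEC tumour libraries where its values were highest.

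B4galt1 (ENSMUSG00000028413, chr4:40804602-40854005, minus strand) encodes the galactosyltransferase that adds galactose to N-acetylglucosamine in many kinds of sugar chain. It was at 12219, 11041 and 11997 normalised counts in BEC normal and 15482, 15668 and 15496 in BEC tumour, while HEC normal had 15857, 14943 and 14710 and HEC tumour 13393, 13670 and 13226. Its level varied little, and its largest log2 fold change was 0.40 ± 0.05, with tumour in BECs (adjusted p = 8.07e-14). In HECs the change with tumour had the other sign, -0.18 ± 0.05 (adjusted p = 0.00331), and the difference between the 2 changes was -0.58 ± 0.07 (adjusted p = 4.73e-14).

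St3gal4 (ENSMUSG00000032038, chr9:35046576-35119268, minus strand) encodes a sialyltransferase that caps galactose with alpha-2,3-linked sialic acid in selectin ligands. It was at 3078, 3003 and 3465 normalised counts in BEC normal and 1521, 1436 and 1623 in BEC tumour, while HEC normal had 1347, 1272 and 1200 and HEC tumour 1243, 1344 and 1077. BEC normal stood above the other 3 groups, and the HEC groups overlapped.

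St3gal4 was 2.5-fold lower in HEC normal than in BEC normal, with -1.32 ± 0.11 as the log2 fold change (adjusted p = 3.96e-34). In tumour BECs it fell by 1.06 ± 0.11 on the log2 scale (adjusted p = 2.20e-22), a call that was lost when the fold was tested against a log2 fold change of 1 (adjusted p = 1). In HECs the change with tumour was -0.06 ± 0.11, with a 95% interval of -0.27 to 0.15. The difference between the changes was 1.00 ± 0.15 (adjusted p = 3.49e-10), at the edge of the fold threshold. Of its exon length 14.1% overlaps the gene 4930581F22Rik on the other strand, and whether counting used the strand is not stated, so its level is uncertain to that extent.

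St3gal6 (ENSMUSG00000022747, chr16:58468125-58524243, minus strand) encodes a second sialyltransferase for selectin ligands, with 25.97% of its exon length overlapping Dcbld2. It was at 653, 580 and 727 normalised counts in BEC normal and 588, 454 and 418 in BEC tumour, while HEC normal had 548, 650 and 602 and HEC tumour 475, 477 and 668. The groups overlapped in each of the 4 comparisons. The log2 fold change nearest to the test threshold was -0.43 ± 0.19, with tumour in BECs (adjusted p = 0.0502).

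**Figure D2:**
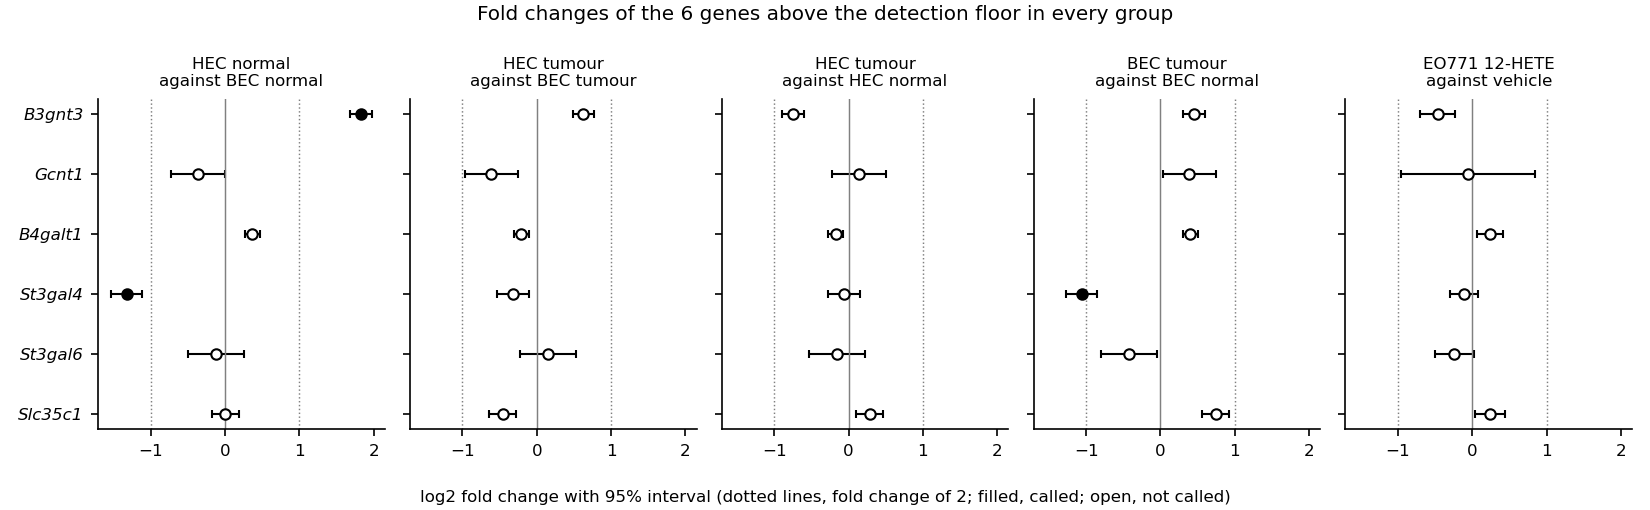
Horizontal axes give the DESeq2 log2 fold change with its 95% interval for the 6 genes above the floor in every group, dotted lines mark a fold change of 2, and filled points were called. B3gnt3 and St3gal4 leave the dotted band in opposite directions between HEC normal and BEC normal, and B3gnt3 has opposite signs with tumour in HECs and BECs.

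Levels of different genes were compared per kb of exon. In HECs Fut7 and Chst4 had the highest means, and in BECs B4galt1. In HEC normal Chst4 was at 5860 ± 5074 per kb, with 1.78 in replicate 2, and overlapped B3gnt3. In HEC tumour Chst4 was at 26400 ± 432 normalised counts per kb and Fut7 at 20701 ± 12687 (SD, n = 3), which overlapped. In BEC normal and BEC tumour B4galt1 led, at 2776 ± 148 and 3672 ± 24.4 per kb.

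St3gal4 and B3gnt3 overlapped in BEC normal at 1089 ± 84.8 and 1058 ± 110 per kb, whereas in HEC normal B3gnt3 at 3750 ± 139 per kb stood above St3gal4 at 436 ± 25.1. St3gal6 and Gcnt1 were low wherever they were measured, from 78.9 to 106 per kb for St3gal6 and from 50.6 to 85.1 for Gcnt1 over the 4 endothelial groups, and they overlapped in BEC tumour.

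**Figure D3:**
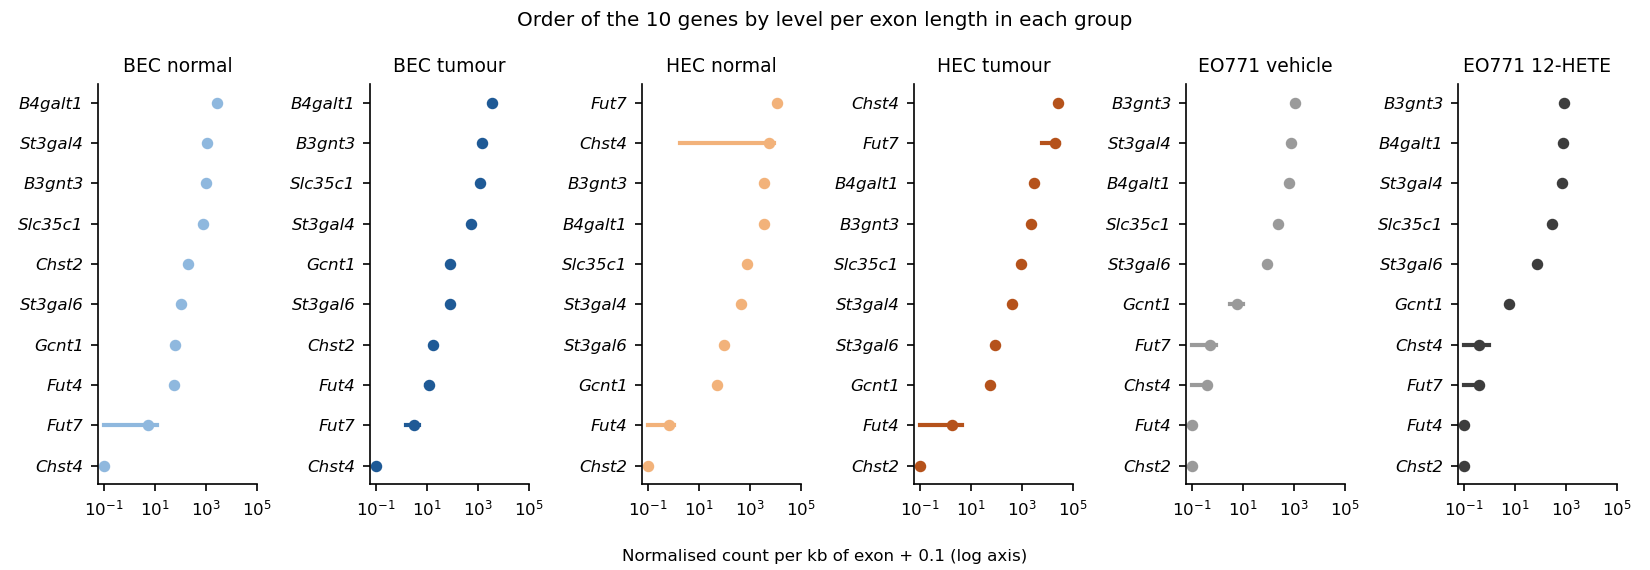
Each panel lists the 10 genes from the highest to the lowest mean normalised count per kb of exon plus 0.1 in 1 group, on a log axis, with the point at the mean and the line from the lowest to the highest of 3 libraries. Chst4 and Fut7 have the highest means in both HEC groups, although Chst4 spans the range down to 1.78 in HEC normal, and stand last in both BEC groups, where B4galt1 leads.

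Other genes of the pathway were taken from lists of donor supply, mucin-type core enzymes and relatives of the 10 genes, 68 in all, of which 60 were tested in the endothelial table. Between HEC normal and BEC normal 3 were higher and 12 lower, so that 15 of 60 were called, against 32.2% of all genes, and the median log2 fold change was -0.49 against 0.00. Between HEC tumour and BEC tumour 1 was higher and 9 were lower, against 21.9% of all genes called. With tumour, 3 rose and 2 fell in HECs, against 7.8% of all genes called, and 2 rose and 8 fell in BECs, against 23.3%. By the interaction 13 of the 60 were called, against 23.3% of all genes.

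Of the genes that make and carry the sugar and sulphate donors, none of 20 was called between HEC normal and BEC normal or with tumour in either cell type, by DESeq2 or by edgeR. Of all genes, DESeq2 called 32.2% between HEC normal and BEC normal, 7.8% with tumour in HECs and 23.3% with tumour in BECs. In the same order 14, 13 (HECs) and 13 (BECs) of the 20 had an unadjusted p under 0.05. Those counts have no share of all genes beside them, since the percentages above are for the stricter call rule. Between HEC tumour and BEC tumour 2 of the 20 were lower in HECs, beside 10.7% of all genes. Papss2, which makes the sulphate donor PAPS, was at 335, 336 and 281 normalised counts in HEC tumour against 802, 650 and 528 in BEC tumour, and Gmds, the first enzyme of GDP-fucose synthesis from GDP-mannose, was at 585, 641 and 546 against 1383, 1518 and 1511. Their log2 fold changes were -1.06 ± 0.24 (adjusted p = 3.66e-05) and -1.32 ± 0.09 (adjusted p = 1.39e-43).

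Among 13 tested mucin-type core enzymes, 1 was higher and 6 were lower in normal HECs than in normal BECs, beside 17.1% and 15.1% of all genes. C1galt1, which makes the core 1 chain that B3GNT3 extends and is named here after its values were seen, was higher, by 1.51 ± 0.09 on the log2 scale (adjusted p = 1.23e-57). Among the lower genes, Galnt3 and Galnt4 encode polypeptide N-acetylgalactosaminyltransferases, which start O-linked chains. Galnt3 was at least 6.12-fold lower (adjusted p = 2.60e-07), and Galnt4 had a log2 fold change of -2.54 ± 0.15 (adjusted p = 4.01e-62). Gcnt4, another core 2 enzyme, was at 770, 500 and 724 normalised counts in BEC normal and 0 in all 6 HEC libraries, at least 58.4-fold lower (adjusted p = 1.33e-21).

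C1galt1 was at 1639, 1374 and 1390 normalised counts in BEC normal and 3495, 3079 and 3071 in BEC tumour, while HEC normal had 4296, 4266 and 4030 and HEC tumour 4330, 3956 and 4377. It rose with tumour in BECs by 1.13 ± 0.09 on the log2 scale (adjusted p = 3.24e-32), and the HEC groups overlapped. Galnt6 was between 317 and 696 normalised counts in BEC tumour and at most 35.3 in every other endothelial library, beside the leukocyte and epithelial markers that were also high there.

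Among relatives of B3gnt3, B3gnt2, which extends polylactosamine chains, split within a group. It was at 2890, 2964 and 3003 normalised counts in BEC normal and 2992, 2732 and 3079 in BEC tumour, while HEC normal had 201, 126 and 125 and HEC tumour 3748, 3539 and 293. Its log2 fold changes were -4.29 ± 0.70 for HEC normal against BEC normal (adjusted p = 2.62e-09) and 4.07 ± 0.70 with tumour in HECs (adjusted p = 5.97e-08). HEC tumour replicate 3, the library that was low for Fut7, lay near the HEC normal values for B3gnt2. B3gnt9 had the same 2 calls, -3.32 ± 0.33 (adjusted p = 9.62e-23) and 1.17 ± 0.34 (adjusted p = 0.0025).

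Among relatives of St3gal4 and St3gal6, 3 of 7 tested were lower in HEC normal than in BEC normal by DESeq2, beside 15.1% of all genes. By edgeR 1 of 7 was called. St6gal1, which adds alpha-2,6-linked sialic acid to the same galactose, was lower in all 4 endothelial comparisons in the direction of HECs or of tumour. It was at 1417, 1442 and 1297 normalised counts in BEC normal and 523, 454 and 411 in BEC tumour, while HEC normal had 582, 488 and 483 and HEC tumour 236, 220 and 186. Its log2 fold changes ran from -1.58 ± 0.14 with tumour in BECs (adjusted p = 3.93e-28) to -1.11 ± 0.15 between HEC tumour and BEC tumour (adjusted p = 1.30e-12). The galactosyltransferase B4galt5 was higher in normal HECs than in normal BECs by 1.12 ± 0.04 on the log2 scale (adjusted p = 5.66e-143). It was the only relative of B4galt1 called there among 6, against 32.2% of all genes called.

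The genes whose profile over the 12 endothelial libraries was nearest to 4 of the 10 genes were found by Pearson's r of log2(normalised count + 1). The libraries fall into 4 groups, so these values mostly restate the group means. For Chst4 they were Cps1 (r = 0.96), Rab5a (0.96) and Zfp280d (0.95). For Fut7 they were Smurf1, 1110038B12Rik and Snhg12 (0.99, 0.99 and 0.98), for B3gnt3 Zkscan17, Tgif1 and Plk3 (0.99 each), and for Gcnt1 Mtmr1, Clec1b and Prrc2b (0.96, 0.96 and 0.95). Fut7 and Chst4 were not among each other's 3 nearest genes.

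Of the 10 genes, EO771 cells expressed the backbone enzymes, with Gcnt1 low, the sialyltransferases and Slc35c1, but hardly any Chst4, Chst2, Fut7 or Fut4. Chst2 and Fut4 had 0 counts in all 6 libraries, which allows a level of up to 3.08 normalised counts. Chst4 had 1, 1 and 0 counts with vehicle and 0, 0 and 2 with 12-HETE, and Fut7 had 0, 2 and 1 and 1, 1 and 0. These 4 genes were under the filter on the mean, so 6 of the 10 were tested.

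With 12-HETE 0 of the 6 were called, against 10.2% of the 11602 genes tested. By DESeq2 3 of them had an unadjusted p under 0.05, a count given without the share of all genes at that p, and edgeR called 0. B3gnt3 was at 3539, 3926 and 3012 normalised counts with vehicle and 2621, 2427 and 2552 with 12-HETE, without overlap, and its log2 fold change of -0.46 ± 0.12 (adjusted p = 5.08e-04) was under the fold threshold. B4galt1 was at 2937, 2617 and 2796 against 3421, 3192 and 3244, a log2 fold change of 0.24 ± 0.09 (adjusted p = 0.0174). Slc35c1 was at 779, 851 and 758 against 969, 917 and 929, a log2 fold change of 0.24 ± 0.10 (adjusted p = 0.0433).

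The other tested genes overlapped between treatments. St3gal6 was at 565, 500 and 546 normalised counts with vehicle and 500, 403 and 462 with 12-HETE (log2 fold change -0.24 ± 0.13, adjusted p = 0.127). St3gal4 was at 2343, 2288 and 2023 against 2051, 2045 and 2082, a difference whose 95% interval ran from -0.29 to 0.08 on the log2 scale. Gcnt1 was at 17.8, 57.3 and 29.7 against 40.1, 30.6 and 30.5, and its interval of -0.96 to 0.85 on the log2 scale still held changes of nearly 2-fold in either direction. Its spread was wider with vehicle (34.9 ± 20.3) than with 12-HETE (33.7 ± 5.50, SD, n = 3 each). The SD was also larger with vehicle for B3gnt3 (459 against 98.0), St3gal4 (171 against 20.1), B4galt1 (160 against 120) and Slc35c1 (49.2 against 27.6). For St3gal6 it was smaller (33.5 against 48.9). Over the more highly counted genes, the mean chi-square per gene between 2 libraries was 18.3 to 51.9 within vehicle and 2.55 to 2.92 within 12-HETE.

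**Figure D4:**
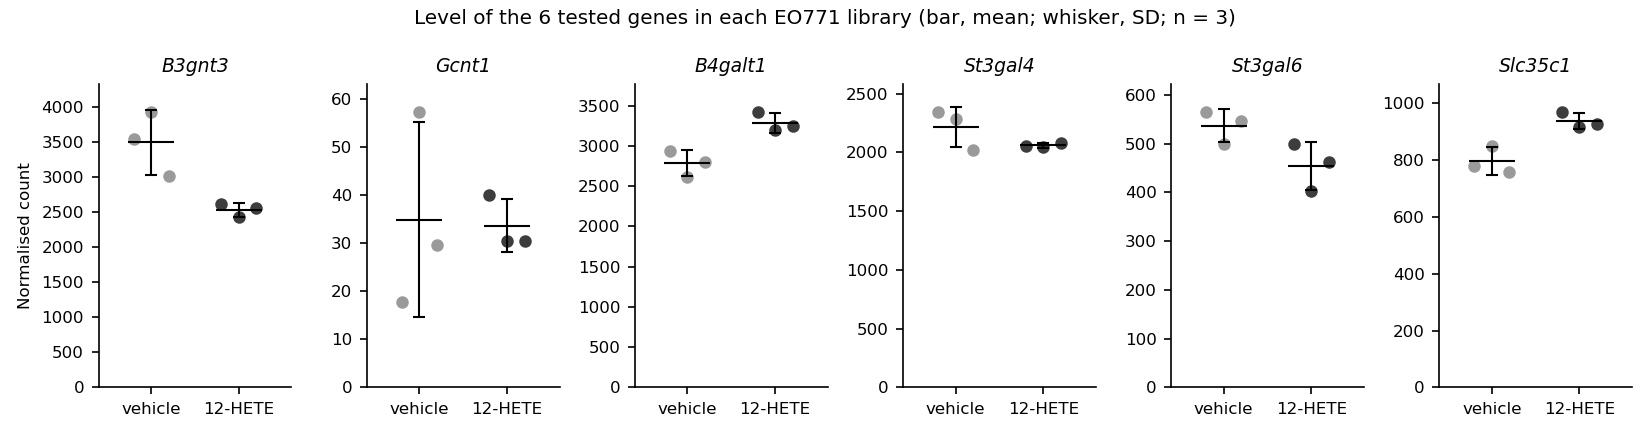
Each point is 1 EO771 library and the vertical axis gives the DESeq2 normalised count from 0, with the mean as a bar and the SD as whiskers (n = 3). B3gnt3 is lower, and B4galt1 and Slc35c1 are higher, in all 3 libraries given 12-HETE than in all 3 given vehicle.

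Of the wider pathway lists, 48 genes were tested in EO771, where 1 rose and 1 fell, against 10.2% of all genes called. St3gal5, the sialyltransferase that makes the ganglioside GM3, was at 139, 101 and 140 normalised counts with vehicle and 293, 276 and 265 with 12-HETE, and rose by 1.13 ± 0.18 on the log2 scale (adjusted p = 4.36e-09). Gcnt3, a core 2 and core 4 enzyme, was at 34.6, 47.8 and 45.0 against 14.4, 25.6 and 20.7, and fell by 1.07 ± 0.38 (adjusted p = 0.0138). Of 19 donor supply genes tested 0 were called by DESeq2 or edgeR, with 8 at an unadjusted p under 0.05, for which no share of all genes is given.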

How the data were processed

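RNA of 12 sorted endothelial and 6 EO771 libraries was measured. The authors aligned reads with STAR to GRCm38 and counted them with featureCounts, and the strand setting is not given in the sources used here. The labels and the methods name different library kits. The deposited EO771 values are whole read counts. The deposited endothelial values are expected counts in steps of about 3.73, so they are not whole fragments, and they were rounded to whole numbers. How that step arose is not given in the sources used here.

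Genes with a mean of at least 10 were fitted with DESeq2 1.42.0 in R 4.3.3 with group as the only term, 12 endothelial libraries in 1 fit and 6 EO771 libraries in another. P-values are from two-sided Wald tests with Benjamini-Hochberg adjustment over all genes tested. A call required an adjusted p under 0.05 and a fold change over 2. The tumour changes of HECs and BECs were compared by an interaction term. The floor was 3 fragments per library, the highest over the libraries of a group. Folds against a group whose mean was under it use the floor, and are bounds where none of its libraries was above it. edgeR 4.0.16, other scale factors, filters and thresholds, a replicate block and leaving out each library were the alternatives. Scripts were tested on simulated data.

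The 10 genes and the pathway and marker lists were chosen with earlier results of these data known. All 10 genes are named in every comparison, with up to 3 called genes of largest fold per list, and the 3 genes of highest Pearson's r for 4 members. Same-numbered EO771 libraries deviated together, with correlations of 0.111 to 0.328 over 3 of 3 pairs, and were taken as paired by that check. The EO771 tests in the results are from the fit without that pairing. The replicate block was run only as an alternative. Promoter windows are from RefSeq on GRCm38.p6. No 2 libraries were duplicates.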

Additional observations from a re-analysis of the deposited data

Results flagged for a closer look

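The interaction test called 3 of the 10 genes, against 23.3% of all genes. By edgeR 2 were called, and none held against a log2 fold change of 1. The log2 change in HECs less that in BECs was -1.20 ± 0.11 for B3gnt3, 1.00 ± 0.15 for St3gal4 and 3.96 ± 1.19 for Fut4 (DESeq2 adjusted p = 5.96e-28, 3.49e-10 and 0.00251). Both HEC groups of Fut4 had means under the floor. The value for Fut4 was 2.17 without HEC tumour replicate 3 and was no longer called.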

How the results depend on the processing

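Called genes among the 10 moved as follows. By adjusted p alone there were 7 between HEC normal and BEC normal (6 with the fold threshold), 9 between HEC tumour and BEC tumour (4), 3 with tumour in HECs (0), 6 with tumour in BECs (3), 5 for the interaction (3) and 3 with 12-HETE (0). Tested against a log2 fold change of 1, there were 6 between HEC normal and BEC normal, 3 between HEC tumour and BEC tumour, where Fut4 was lost, 1 with tumour in BECs and 0 for the interaction. The shares of all genes under these rules are not given here, so the counts are not read as particular to the 10 genes. Leaving out single libraries gave 0 to 1 with tumour in HECs, with Chst4 called without HEC normal replicate 2 and Fut4 without HEC tumour replicate 1, where both its groups were under the floor. The replicate block changed no count of calls, and it is read as pairing in EO771 only, since 1 of 18 endothelial pairs correlated over 0.1. Of 1033 values for single genes, 987 kept their direction and side of the threshold, 18 passed it, 17 lost it and 11 changed sign. Those that changed sign were never called: without single libraries, Slc35c1 between HEC normal and BEC normal ran from -0.06 to 0.09, St3gal6 between HEC tumour and BEC tumour from -0.03 to 0.31, Gcnt1 and St3gal4 with tumour in HECs from -0.04 to 0.26 and from -0.13 to 0.02, and Gcnt1 with 12-HETE from -0.38 to 0.50. Gcnt1 with 12-HETE was 0.07 with the replicate block. The interaction of St3gal4 ran from 0.92 to 1.08 and was lost in 11 of 20 alternatives, with edgeR at 0.94 (adjusted p = 2.56e-04). The cause of these shifts was not tested. Depth does not resolve levels under 3 fragments, so the sizes of the Chst4, Fut7, Chst2 and Fut4 differences between HECs and BECs are not resolved. The folds given are bounds only where no library of the low group was above the floor.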
